A study of Mus musculus with 10 samples.

Results

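Cyclin-dependent kinase (CDK) inhibitors and growth arrest genes were followed in mouse liver: Cdkn1a, Cdkn1b, Cdkn1c, Cdkn2c, Mdm2, Ccng1, Btg2, Gadd45a, Gadd45b and Gadd45g. The members were the rows of these 10 symbols among 23420 gene rows in each count file. All 10 were present, and all 10 were among the 12796 genes that passed the filter on low counts. The members were chosen by name and selected on the starved and fed levels of these livers, which were known when the list was drawn up, among them the strong increase of Cdkn1a. The fold changes of the members are therefore a description and carry no test of their own.

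The series asks how the metabolic state of the liver bears on gene regulation through histone lysine β-hydroxybutyrylation. RNA was taken from male C57BL/6 mice aged 4 months: 5 had standard chow and 5 were starved for 48 hours with water. Each library is taken as the liver RNA of 1 mouse, was made with a strand-marking total RNA kit, and carries the number of its sample title, 1 to 5 in each group. Levels are given as CPM, read counts relative to library size after TMM scaling, a scaling that removes shifts shared by most genes. Depth was 22978413 to 29941358 reads assigned to genes in fed and 18197194 to 28065220 in starved libraries.

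CDK inhibitors stop the cell cycle by binding the kinases that drive it. The CIP/KIP proteins p21 (Cdkn1a), p27 (Cdkn1b) and p57 (Cdkn1c) act on several cyclin-CDK complexes, and the INK4 protein p18 (Cdkn2c) binds CDK4 and CDK6. Cdkn1a, Mdm2, Ccng1, Btg2 and Gadd45a are classical targets of the tumour suppressor p53, and MDM2 in turn marks p53 for degradation. The GADD45 proteins are small stress sensors that bind p21, PCNA and the kinase MAP3K4. In the adult liver nearly all hepatocytes are quiescent.

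RefSeq promoter windows (build GRCm38.p6, 250 bases before to 50 after a start site) matched 9 of the 10 members, with 11 windows in all. The 200 bases before the start are printed for Cdkn1a, Btg2, Gadd45b and Gadd45g, the members with the largest fold changes, for Gadd45a as their paralog and for Ccng1 as the other member with a p53 site, since they show which motifs these genes share. Capitals mark matches to a p53 site (2 adjacent copies of the 10-base p53 element, at most 1 mismatch in 20 bases), the cAMP response element TGACGTCA, the E-box with the letters CACGTG, the box named CCAAT after its letters, the TATA box TATAAA, or its variant with the letters TATAAG, on either strand, and no marked motif overlaps another. The motifs were chosen with these sequences in view.
Cdkn1a upstream start, plus strand, chr17:29090779-29090978: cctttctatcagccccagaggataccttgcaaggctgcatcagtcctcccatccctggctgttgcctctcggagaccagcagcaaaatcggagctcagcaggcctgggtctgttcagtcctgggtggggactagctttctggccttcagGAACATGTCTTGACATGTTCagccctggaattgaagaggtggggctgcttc
Cdkn1a downstream start, plus strand, chr17:29093569-29093768: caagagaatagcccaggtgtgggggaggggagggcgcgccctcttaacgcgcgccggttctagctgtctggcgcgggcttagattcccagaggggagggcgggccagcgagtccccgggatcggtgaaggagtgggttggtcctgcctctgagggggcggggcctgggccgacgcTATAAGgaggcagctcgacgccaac
Ccng1, minus strand, chr11:40755287-40755486: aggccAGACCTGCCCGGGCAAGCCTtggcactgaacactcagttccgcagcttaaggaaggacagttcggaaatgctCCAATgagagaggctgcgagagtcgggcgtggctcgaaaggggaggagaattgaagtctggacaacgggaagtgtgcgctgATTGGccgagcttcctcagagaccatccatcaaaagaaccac
Btg2, minus strand, chr1:134079156-134079355: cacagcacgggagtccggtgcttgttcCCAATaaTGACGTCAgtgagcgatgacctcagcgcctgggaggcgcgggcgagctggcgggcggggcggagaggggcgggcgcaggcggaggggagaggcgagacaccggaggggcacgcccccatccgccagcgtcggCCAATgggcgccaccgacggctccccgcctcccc
Gadd45a, minus strand, chr6:67037408-67037607: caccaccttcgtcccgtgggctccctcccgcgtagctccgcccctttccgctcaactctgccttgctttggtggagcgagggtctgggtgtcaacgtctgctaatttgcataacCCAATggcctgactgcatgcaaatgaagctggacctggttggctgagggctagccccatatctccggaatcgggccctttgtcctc
Gadd45b, plus strand, chr10:80929891-80930090: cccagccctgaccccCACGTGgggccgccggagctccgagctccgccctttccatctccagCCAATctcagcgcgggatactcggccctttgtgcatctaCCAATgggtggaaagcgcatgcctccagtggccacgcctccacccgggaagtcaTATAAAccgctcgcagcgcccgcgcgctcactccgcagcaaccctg
Gadd45g, plus strand, chr13:51846475-51846674: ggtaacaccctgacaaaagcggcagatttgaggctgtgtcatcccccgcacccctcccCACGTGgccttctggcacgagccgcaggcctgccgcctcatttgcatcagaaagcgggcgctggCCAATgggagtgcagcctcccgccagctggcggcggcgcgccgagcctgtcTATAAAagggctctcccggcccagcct

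The p53 site was found before the upstream start of Cdkn1a (positions −51 to −32, the start being 0) and before Ccng1 (−195 to −176), and in 0.0883% of all 32851 windows of that length. Gadd45b and Gadd45g shared an E-box (at −185 and −142) and a TATAAA (at −46 and −27), which 7.15% and 13.6% of all windows hold, and a window of Cdkn2c also held an E-box. Gadd45a, their paralog, had neither motif and carried a CCAAT at −86, a box that Gadd45b and Gadd45g held too. A single 10-base p53 element without mismatch, not marked by capitals, stood in Gadd45a (−40 to −31) and Mdm2 (−186 to −177). Such an element is in 8.36% of windows, and Cdkn1a and Ccng1 held it as well. Btg2 was the member with the cAMP response element (−166), which 1.79% of windows hold, and Cdkn1a had TATAAG before its downstream start (−25) and, on the other strand and outside the printed bases, before its upstream start (−228), against 7.43% of windows. CCAAT occurs in 37.4% of windows. Mdm2 held GTAAACA, a forkhead motif, at −153 (3.65% of windows), and the palindromic glucocorticoid response element was in no window of a member. A match is a description of letters in the window and not of binding.

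Starved library 2 stood apart over all genes, and library 4 was next to it by a small margin. Starved library 2 lay at a mean root mean square distance of 0.882 log2 units from the other starved libraries over all tested genes. Library 4 lay at 0.628, the other 3 starved libraries at 0.574 to 0.597 and the fed libraries at 0.342 to 0.368. Fold changes are given with all 10 libraries and without starved libraries 2 and 4, a pair picked with the members' values already known. The labels speak of pairs of mice without saying what makes a pair, and give no batch or date.

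Of the 10 members, 6 rose in starved liver (Cdkn1a, Cdkn1b, Mdm2, Btg2, Gadd45b and Gadd45g) and 0 fell by edgeR's quasi-likelihood test, with p-values adjusted by the Benjamini-Hochberg method across the whole table and a threshold of 0.05. The count of members lower was also 0 at an unadjusted p under 0.05, by DESeq2 and by limma-voom. Over all 12796 genes tested, 18.6% were called higher and 20% lower, 38.6% in all. In 5 members (Cdkn1a, Cdkn1b, Mdm2, Gadd45b and Gadd45g) every starved liver stood above every fed liver, which held for 13.2% of all genes. Nothing is read from these counts, since the contrast served to choose the list. The rise was 49.9-fold for Cdkn1a, 19.97-fold for Gadd45b, 16.5-fold for Gadd45g and 8.36-fold for Btg2, but 1.52-fold for Mdm2 and 1.38-fold for Cdkn1b. Of all calls 48.2% were higher, and 29.9% with library totals alone as scaling, which moved the median of all genes by −0.16, while the same 6 members were called higher in all 20 fits. Without starved libraries 2 and 4 the 6 genes that rose kept their call, and 1 member, Gadd45a, was called lower. Over all 13080 genes tested without these libraries, 2647 were called higher and 2705 lower.

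**Figure D1:**
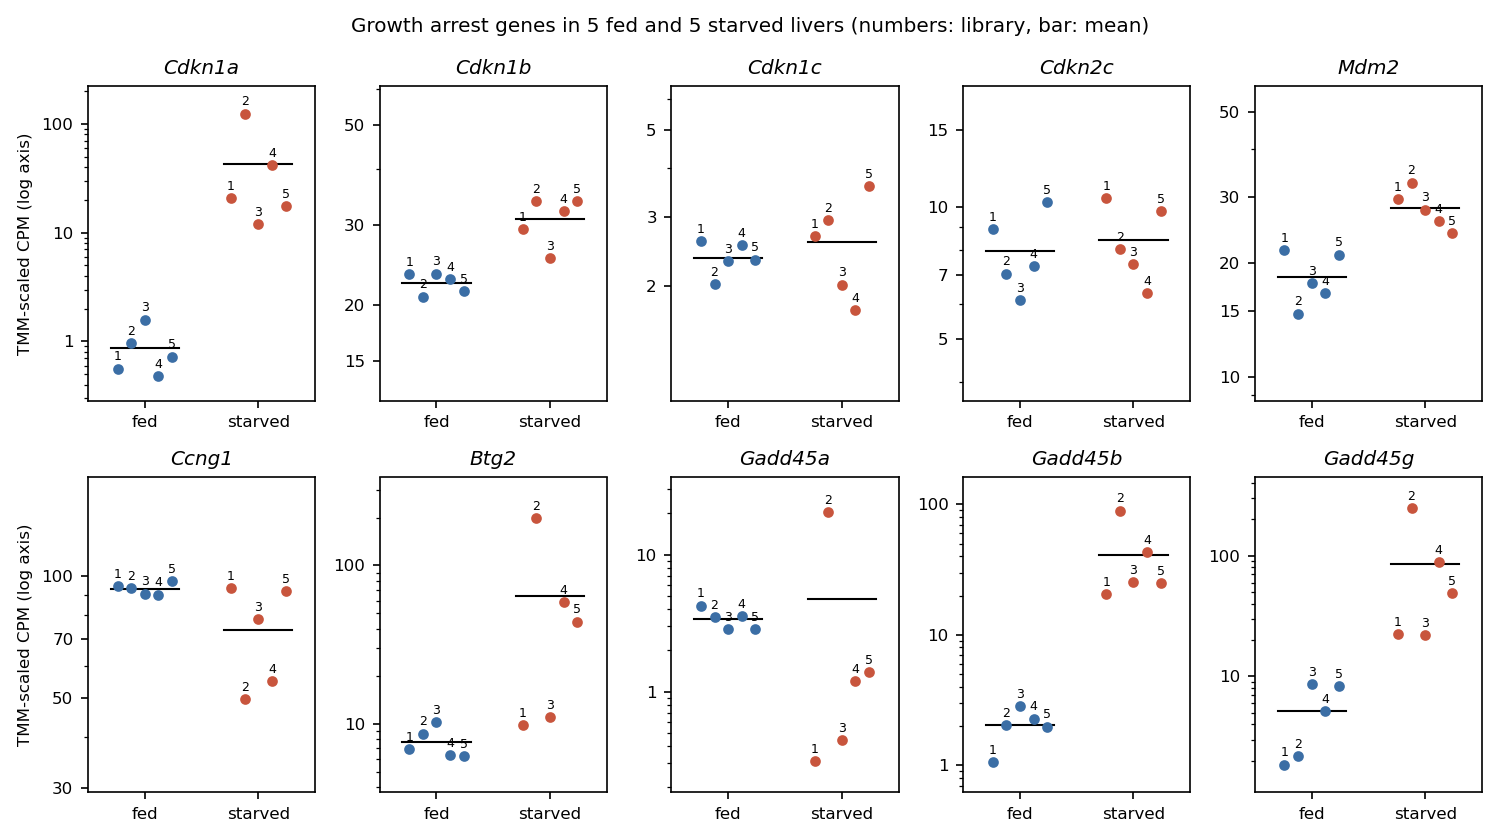
Level of each growth arrest gene in each liver, as TMM-scaled CPM on a log axis with its own range per panel. Points are single libraries with their number, 5 fed (left) and 5 starved (right), and bars are group means. Every starved point lies above every fed point for Cdkn1a, Cdkn1b, Mdm2, Gadd45b and Gadd45g, and for Gadd45a starved library 2 stands alone at 20.4 CPM.

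Cdkn1a, which encodes p21, was the member with the lowest fed level and the largest change. It lies on chromosome 17 (29090976 to 29100727, GRCm38, plus strand), where the annotation has an unnamed transcript on the opposite strand. In fed livers 1 to 5 it stood at 0.562, 0.961, 1.58, 0.482 and 0.725 CPM, from 14 to 43 reads. In starved livers 1 to 5 it stood at 20.8, 124, 12.0, 41.7 and 17.6 CPM, from 244 to 2320 reads. The lowest starved liver, number 3, was still well above the highest fed liver, and starved libraries 2 and 4 were the highest of all. The mean was 0.862 ± 0.442 (SD, n = 5) in fed and 43.2 ± 46.5 CPM in starved liver, a log2 fold change of 5.64 ± 0.71 (SE), the eighth highest of all genes tested. It was 4.30 ± 0.28 without starved libraries 2 and 4, 19.7-fold in place of 49.9-fold. With 14 to 43 reads in fed livers, the size of the Cdkn1a rise carries a large counting error. In whole tissue, more cells with the transcript and more transcript per cell cannot be told apart.

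Cdkn1b, encoding p27 (chromosome 6, 134920401 to 134925513, plus strand), rose by far less. It stood at 23.3, 20.8, 23.4, 22.8 and 21.4 CPM in fed livers 1 to 5. In starved livers it stood at 29.3, 33.8, 25.4, 32.2 and 33.8 CPM. The groups did not overlap, and both were narrow, with highest-to-lowest ratios of 1.13 and 1.33. The log2 fold change was 0.47 ± 0.10 with all libraries and 0.42 ± 0.10 without starved libraries 2 and 4.

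Cdkn1c, an imprinted gene encoding p57 (chromosome 7, 143458339 to 143461050, minus strand, with an antisense gene model across it), was not called. Its level was 2.02 to 2.60 CPM in fed and 1.73 to 3.59 CPM in starved liver, with starved liver 5 highest and 4 lowest, and the groups overlapped (log2 fold change 0.12 ± 0.20). Cdkn2c, encoding p18 (chromosome 4, 109660876 to 109667189, minus strand), ranged from 6.14 to 10.3 CPM in fed and from 6.36 to 10.5 CPM in starved liver (0.08 ± 0.18) and was not called either. For both genes the sign of these small values turned with library totals alone as scaling (−0.04 and −0.08). It also turned without starved library 5 for Cdkn1c (−0.02) and without starved library 1 for Cdkn2c (−0.0077).

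The make-up of the CIP/KIP family was different in the 2 groups. Levels of different genes are compared here per length, as CPM per kilobase of exon in GENCODE M21. The length joins all annotated exons of a gene. Which transcript was expressed was not examined, so close levels may change order with another length. The summed level of Cdkn1a, Cdkn1b and Cdkn1c was 6.31 ± 0.366 CPM per kb (SD, n = 5; range 5.83 to 6.73) in fed and 20.2 ± 13.6 (9.94 to 43.8) in starved liver. Cdkn1b made up 77.8% ± 0.776 of the fed sum and Cdkn1a 3.83% ± 1.84. In starved liver Cdkn1a made up 50.3% ± 19.4, from 34.0% in library 3 to 79.7% in library 2, and Cdkn1b 41.8% ± 15.8. The order of these means rests on libraries 2 and 4: in the other 3 starved livers Cdkn1b was the larger share, with 47.3%, 56.1% and 52.6% against 43.0%, 34.0% and 35.0% for Cdkn1a.

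**Figure D2:**
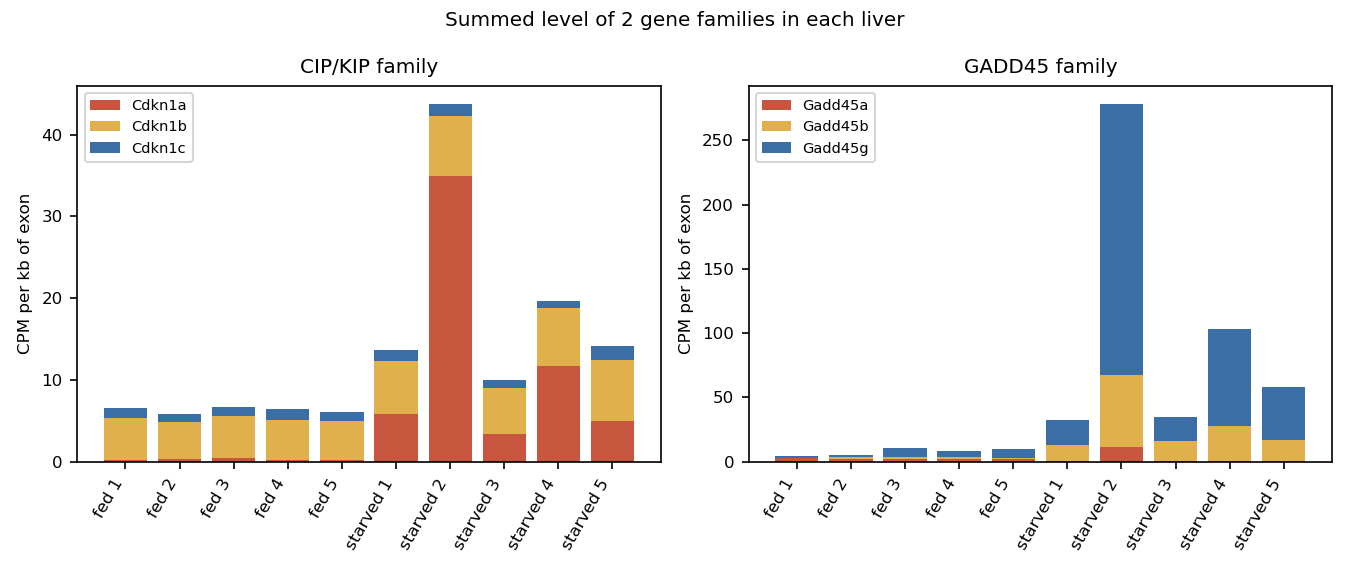
Summed level of the CIP/KIP genes (left) and the GADD45 genes (right) in each liver, as TMM-scaled CPM per kilobase of exon, stacked by gene. The CIP/KIP sum lies at 5.83 to 6.73 in fed and 9.94 to 43.8 in starved libraries, and the GADD45 sum at 4.66 to 10.7 and 32.2 to 278.

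Mdm2 lies on chromosome 10 (117688875 to 117710758, minus strand) and encodes the ubiquitin ligase that marks p53 for degradation. It stood at 21.7, 14.7, 17.7, 16.7 and 21.1 CPM in fed livers 1 to 5. In starved livers it stood at 29.6, 32.6, 27.7, 25.8 and 23.99 CPM. The lowest starved liver (23.99) was close to the highest fed liver (21.7), without overlap. Its log2 fold change was 0.60 ± 0.13, and 0.58 ± 0.13 without starved libraries 2 and 4. Its starved libraries spread over a ratio of 1.36 where those of Cdkn1a spread over 10.3.

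Ccng1, encoding cyclin G1 (chromosome 11, 40748552 to 40755311, minus strand), did not follow Cdkn1a or Mdm2. In fed livers 1 to 5 it stood at 94.5, 93.2, 90.5, 90.0 and 97.3 CPM, the narrowest fed range of all members (ratio 1.08). In starved livers it stood at 93.2, 49.7, 78.3, 54.9 and 91.7 CPM. Starved libraries 2 and 4, the highest for Cdkn1a, were the lowest for Ccng1, and libraries 1 and 5 lay within the fed range. The log2 fold change of −0.34 ± 0.17 was not called, and it was −0.07 ± 0.08 without starved libraries 2 and 4. Of the 2 members with a p53 site in the window, Cdkn1a thus rose and Ccng1 was not called.

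Btg2 lies on chromosome 1 (134075170 to 134079120, minus strand) and encodes an antiproliferative protein that recruits the deadenylase complex to messenger RNA. It stood at 6.95, 8.68, 10.3, 6.37 and 6.28 CPM in fed livers 1 to 5. In starved livers 1 to 5 it stood at 9.80, 199.6, 11.02, 58.4 and 44.2 CPM. Starved library 1 lay within the fed range, library 3 just above it and libraries 2, 4 and 5 were far above it, so the groups overlapped. The log2 fold change was 3.06 ± 0.72, and 1.48 ± 0.40 without starved libraries 2 and 4, from a starved mean of 64.6 ± 78.3 and 21.7 ± 19.5 CPM (SD, n = 5 and n = 3).

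The GADD45 paralogs differed among themselves. Gadd45b (chromosome 10, 80930073 to 80932204, plus strand) stood at 1.05, 2.02, 2.83, 2.27 and 1.97 CPM in fed and at 20.4, 89.3, 25.5, 43.2 and 24.8 CPM in starved livers 1 to 5. All starved livers were above all fed livers, and without libraries 2 and 4 the starved livers were close together (23.6 ± 2.74 CPM, SD, n = 3). Its log2 fold change was 4.32 ± 0.45, and 3.55 ± 0.20 without those libraries.

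Gadd45g (chromosome 13, 51846678 to 51848468, plus strand) stood at 1.86, 2.19, 8.61, 5.16 and 8.29 CPM in fed livers 1 to 5. Fed livers 1 and 2 were far lower than fed livers 3 and 5, the widest fed range of all members (ratio 4.62). In starved livers it stood at 22.5, 247, 21.9, 88.2 and 49.2 CPM, without overlap with the fed livers. The log2 fold change was 4.04 ± 0.75, and 2.60 ± 0.43 without starved libraries 2 and 4.

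Gadd45a, the paralog known as a p53 target, showed the reverse of its paralogs in 4 of 5 starved livers. It stood at 4.25, 3.51, 2.87, 3.55 and 2.86 CPM in fed livers 1 to 5. In starved livers 1, 3, 4 and 5 it stood at 0.311, 0.443, 1.19 and 1.39 CPM (8 to 33 reads), all below every fed liver. In starved liver 2 it stood at 20.4 CPM (381 reads), above every fed liver. With all libraries the log2 fold change was 0.45 ± 0.90 and not called, and its sign depended on the method, with −1.37 by limma-voom and −1.17 with a replicate block, neither called. Without starved library 2 alone it was −2.04 and without libraries 2 and 4 it was −2.33 ± 0.36, and both were called lower. Gadd45a lies on chromosome 6 (67035096 to 67037457, minus strand) and overlaps the noncoding gene E230016M11Rik on the opposite strand. That gene stood at 0.0723 to 0.545 CPM with 2 to 14 reads a library, and the strand setting of the counting is not stated.

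The summed GADD45 level per length was 7.66 ± 2.74 CPM per kb in fed and 101 ± 103 in starved liver (SD, n = 5), where library 2 alone reached 278. Gadd45a made up 29.5% ± 15.6 of the fed sum (15.1% to 51.7%) and 1.48% ± 1.52 of the starved sum (0.547% to 4.15%). Even in starved library 2 Gadd45a thus gave 4.15% of the family's level. Gadd45g was the most abundant paralog in starved liver with 66.7% ± 9.68, and Gadd45b followed with 31.8% ± 10.6.

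**Figure D3:**
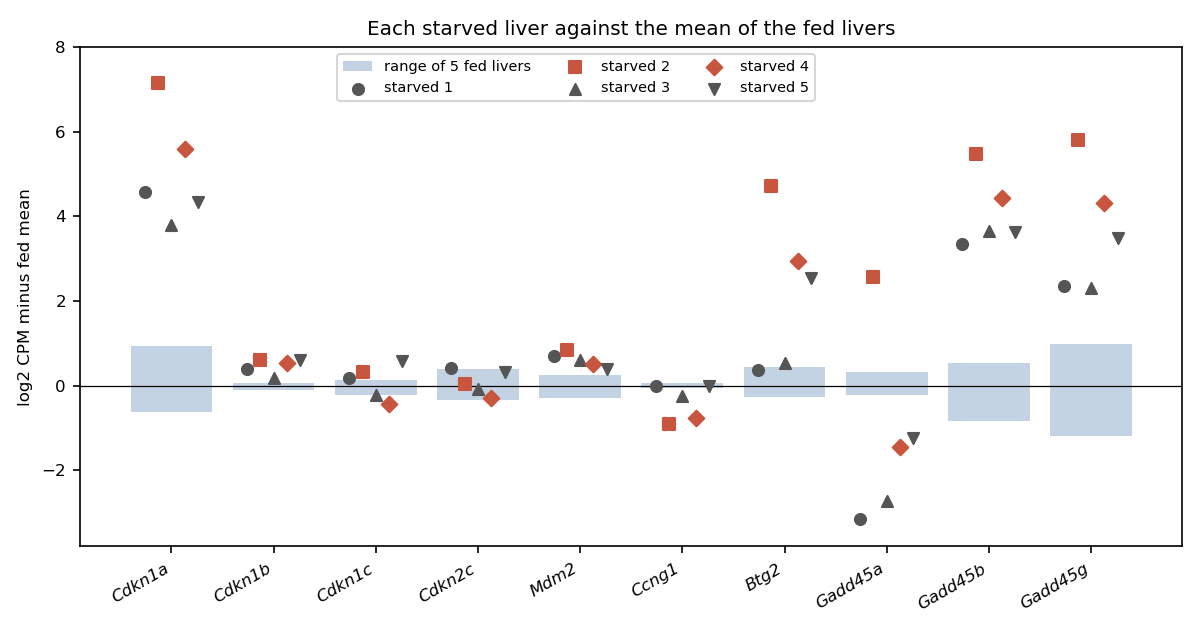
Each starved liver as log2 CPM (prior count 2) minus the mean of the 5 fed livers, for each growth arrest gene. Blue bars span the 5 fed livers, red symbols are starved libraries 2 and 4 and grey symbols the other 3. Libraries 2 and 4 are the highest for Cdkn1a, Btg2, Gadd45b and Gadd45g and the lowest for Ccng1.

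Among the starved livers, libraries 2 and 4 led for the strongly changed members, while the order of libraries 1, 3 and 5 differed from gene to gene. Library 2 was the highest starved library for 6 of 10 members (Cdkn1a, Mdm2, Btg2, Gadd45a, Gadd45b and Gadd45g), and libraries 2 and 4 held the top 2 places for 4 of them (Cdkn1a, Btg2, Gadd45b and Gadd45g). For Ccng1 library 2 was the lowest. Library 2 stood apart over all genes, and how often it was the highest among them was not counted. Nothing particular to the members is therefore read from these counts. Highest-to-lowest ratios among starved libraries were 65.4 for Gadd45a, 20.4 for Btg2, 11.3 for Gadd45g, 10.3 for Cdkn1a and 4.37 for Gadd45b. For the other 5 members they were 1.33 to 2.07. The summed level of 20 immediate early genes, which answer to acute signals, was 136 to 171 CPM in fed livers and 124, 728, 151, 299.6 and 269 CPM in starved livers 1 to 5. Libraries 2 and 4 were again the highest, and the part of such signals in the members' levels was not tested.

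**Figure D4:**
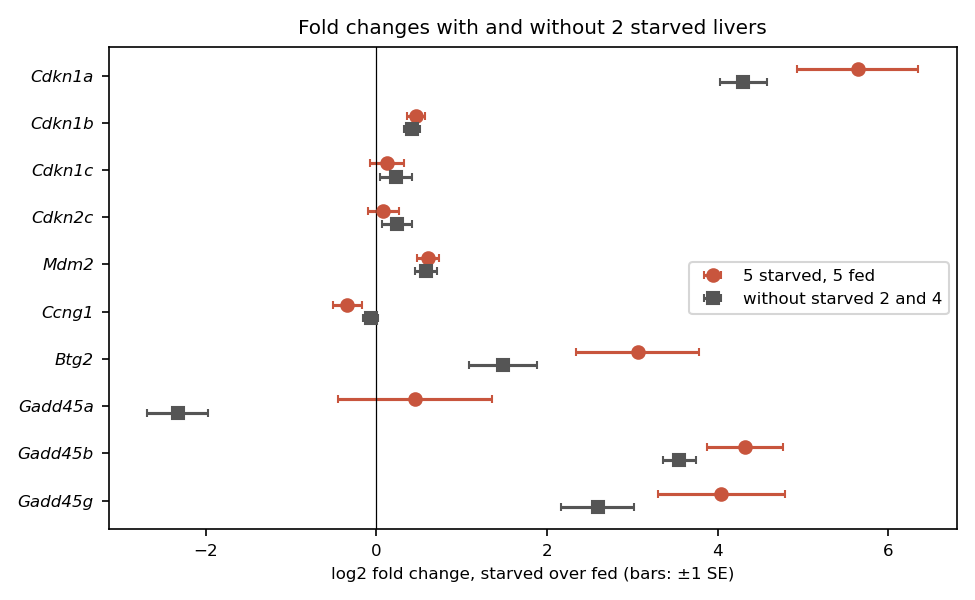
Log2 fold change of each growth arrest gene, starved over fed, with all 10 libraries (red) and without starved libraries 2 and 4 (grey). Bars are 1 standard error on each side. Gadd45a moves from 0.45 to −2.33 and Btg2 from 3.06 to 1.48, while Cdkn1b and Mdm2 stay at 0.42 to 0.60.

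Per length, the order of the members changed between the groups. In fed liver Ccng1 was the most abundant at 26.5 CPM per kb, followed by Cdkn1b (4.91), Gadd45g (4.45), Mdm2 (3.61), Cdkn2c (2.96) and Btg2 (2.81). Gadd45a (1.93), Gadd45b (1.28), Cdkn1c (1.16) and Cdkn1a (0.243) came last. From Cdkn1b to Cdkn1c, neighbours in this order overlapped over the fed libraries, while Ccng1 stood above and Cdkn1a below all others. In starved liver Gadd45g led on average at 73.2 CPM per kb, then came Gadd45b (25.6), Btg2 (23.6) and Ccng1 (20.9), and Cdkn1a (12.2) was the fifth. These 5 overlapped their neighbours over the starved libraries, and the order rests on libraries 2 and 4. Without them Gadd45g stood at 26.6, Ccng1 at 24.99, Gadd45b at 14.8 and Btg2 at 7.90 CPM per kb, and Cdkn1a (4.73) came after Cdkn1b (6.48) and Mdm2 (5.33).

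The genes whose profile over the 10 libraries lay nearest to that of Cdkn1a were Cyp2b10, a cytochrome P450 of drug metabolism, 3930402G23Rik, a gene model without a name, Slc4a9, an anion exchanger, Sult1e1, an estrogen sulfotransferase, and Eif4ebp3, a repressor of translation initiation. The measure was the root mean square difference of log2 CPM relative to the fed mean over 10 libraries, which was 0.854 for Cyp2b10 and 1.03 for Eif4ebp3 among 11570 candidates outside the list. Gadd45b came as near as the closest of them (0.857) and Gadd45g lay at 1.23, while Btg2 lay at 2.12 and Mdm2 at 3.29. Cyp2b10 stood at 14.96 to 41.2 CPM in fed and at 279, 1249, 258, 899 and 394 CPM in starved livers 1 to 5, so libraries 2 and 4 were its highest too. The same held for Slc4a9, Sult1e1 and Eif4ebp3, as is largely given by picking genes for likeness over these same libraries. For 3930402G23Rik starved library 4 was the highest (57.4 CPM), but library 3 (15.5) stood just above library 2 (14.9). The log2 fold changes of these 5 genes ran from 4.21 (Eif4ebp3) to 6.74 (Sult1e1), and from 3.11 (Slc4a9) to 5.37 (Sult1e1) without libraries 2 and 4. Fed means were near the detection floor for Slc4a9 (0.304 CPM), 3930402G23Rik (0.380) and Sult1e1 (0.924), so the size of their rises carries a large counting error. Candidates had a mean of at least 1 CPM over all libraries, which these low genes reached only through their starved levels.

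The transcript of p53 itself, Trp53, was not called. It stood at 7.80, 11.1, 9.27, 8.88 and 7.85 CPM in fed and at 9.38, 1.60, 7.23, 9.54 and 11.4 CPM in starved livers 1 to 5. Starved library 2, the highest for Cdkn1a, Mdm2 and Btg2, was by far the lowest for Trp53, at 30 reads. The log2 fold change was −0.20 ± 0.36 with an edgeR adjusted p of 0.69, and 0.07 ± 0.16 without starved libraries 2 and 4.

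The related lists from here on were chosen with earlier results of these data known, so their counts and shares are a description. Of 29 tested genes in a list of p53 and its targets outside the members, 6 rose and 3 fell, which is 20.7% and 10.3% against 18.6% and 20% of all genes. The median log2 fold change was 0.05, against 0.0035 for all genes tested. The largest rises were those of Sesn1, a stress-induced regulator of mTORC1 (2.89 ± 0.80), Trp53inp1, a p53 cofactor in autophagy and cell death (2.64 ± 0.56), and Sesn2, a paralog of Sesn1 (2.27 ± 0.61). Sesn1 stood at 19.2 to 22.9 CPM in fed and at 21.6, 546, 26.1, 128 and 43.4 CPM in starved livers 1 to 5, with libraries 2 and 4 highest as for Cdkn1a. Without these libraries the values were 0.57 for Sesn1, 1.18 for Trp53inp1 and 0.93 for Sesn2, all still called, with 6 of the list higher and 5 lower. Sesn1 was not called by limma-voom or with a replicate block, and Sesn2 not by limma-voom. Eda2r, a death domain receptor (−1.23 ± 0.37), Fas, the CD95 death receptor (−0.42 ± 0.14), and 9630033F20Rik, the older name of the TIGAR gene of glycolysis control (−0.37 ± 0.12), fell. The calls of these 3 were lost when certain single libraries were left out, for Eda2r fed library 5, for Fas fed library 1, 2, 3 or 5 or starved library 4, and for 9630033F20Rik fed library 1, 2 or 4 or starved library 3 or 5.

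A list of other CDK inhibitors, pocket proteins and BTG/TOB proteins also held Ccng2, Gas1, Gas2 and Gas6. In this list 11 of 16 genes had enough reads, of which 4 rose and 5 fell. That is 36.4% and 45.5%, against 18.6% and 20% of all genes. Ccng2, cyclin G2, rose from 13.2 ± 0.902 to 41.0 ± 16.4 CPM (SD, n = 5; log2 fold change 1.64 ± 0.24), unlike its paralog Ccng1. The difference between the 2 genes was not tested. Btg1, a paralog of Btg2 (0.96 ± 0.25), and the pocket proteins Rb1 (0.63 ± 0.20) and Rbl2 also rose. The Rb1 call was lost without starved libraries 2 and 4 (0.31), with library totals alone (0.47) and without fed library 1, 4 or 5 (0.60 to 0.62). Gas6, a ligand of TAM receptors (−1.59 ± 0.13), Rbl1, the pocket protein p107 (−1.05 ± 0.28), and Gas2, a cytoskeletal protein (−0.92 ± 0.21), fell, as did Gas1 and Cdkn2d.

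Of the INK4 genes besides Cdkn2c, Cdkn2d fell from 2.36 ± 0.294 to 1.66 ± 0.212 CPM (−0.51 ± 0.16, with an edgeR adjusted p of 0.0235). All 5 starved livers were below all fed livers, but the call was lost with a replicate block, without fed library 1 and without starved library 1 or 4. Cdkn2a, encoding p16 and ARF, had 0 to 4 reads and Cdkn2b, encoding p15, 3 to 13 reads a library, too few to be tested.

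The tested genes of the G1 and S phases were lower or not called. Of 26 tested G1 and S phase cyclins, CDKs and E2F factors, 0 rose and 7 fell (26.9%, against 20% of all genes), with a median of −0.07. For genes higher, the count by edgeR was 0, with 1 at an unadjusted p under 0.05, 1 by DESeq2 and 0 by limma-voom. The largest falls were those of E2f2, an S phase transcription factor (−3.0 ± 0.45), Ccnd1, cyclin D1 (−2.37 ± 0.40), and Ccna2, cyclin A2 (−1.82 ± 0.30). Ccnd1 stood at 131, 181, 156, 104 and 121 CPM in fed and at 38.8, 8.66, 36.1, 11.2 and 39.1 CPM in starved livers 1 to 5. Libraries 2 and 4, the highest for Cdkn1a, were the lowest for Ccnd1, and without them the fall was −1.85. E2f2 and Ccna2 were low throughout (1.23 and 1.25 CPM in fed liver), with 0 to 8 reads of E2f2 in starved libraries. Of the kinases, named after their values were seen, Cdk2, a target of the CIP/KIP proteins, fell by 1.11 on the log2 scale (SE 0.13). Cdk4 and Cdk6, which INK4 proteins bind, stood at 0.01 ± 0.11 and 0.08 ± 0.16, and neither was called.

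Of 21 tested genes of replication and mitosis, 14 fell and 0 rose (66.7% lower, against 20% of all genes), with a median log2 fold change of −0.78. The count higher was 0 by edgeR, also at an unadjusted p under 0.05, by DESeq2 and by limma-voom. Ccnb1, cyclin B1 (−3.98 ± 0.53), Top2a, the topoisomerase of mitotic chromosomes (−3.92 ± 0.25), and Mki67, a marker of cycling cells (−2.87 ± 0.26), fell the most among genes with at least 1 CPM. Mki67 stood at 2.62 to 3.61 CPM (76 to 105 reads) in fed and at 0.181 to 0.641 CPM (5 to 13 reads) in starved liver. Without starved libraries 2 and 4, 15 of 22 fell. Ccnb1 had 0 to 3 reads and Top2a 3 to 8 reads in starved libraries, so the size of these falls depends on the prior count.

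**Figure D5:**
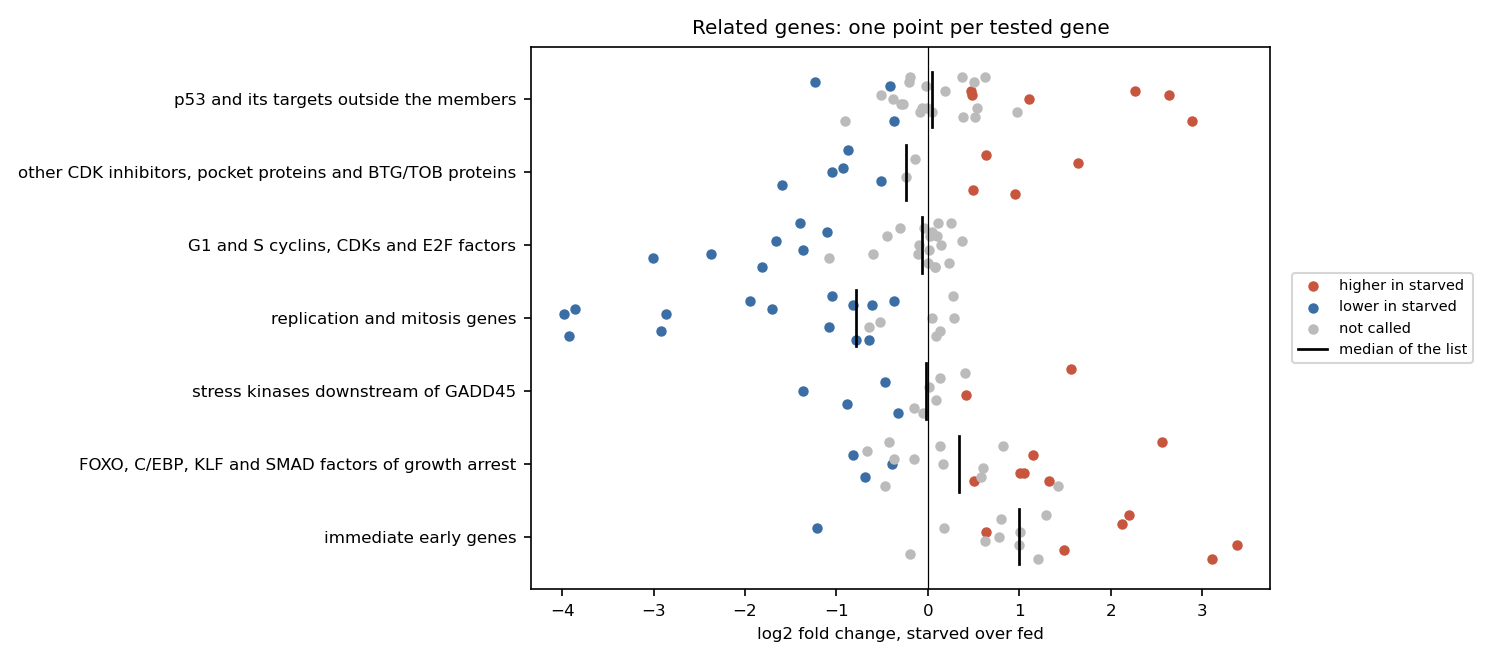
Log2 fold change, starved over fed, of every tested gene in 7 related lists. Red points were called higher, blue points lower and grey points not called by edgeR's quasi-likelihood test, and black bars are list medians. Points of the replication and mitosis list lie mostly below 0, with a median of −0.78, and those of the p53 list lie on both sides of 0, with a median of 0.05.

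Of 12 tested genes on the path from GADD45 proteins to p38 and JNK, 2 rose and 4 fell. The shares were 16.7% and 33.3%, against 18.6% and 20% of all genes. All are stress kinases except the transcription factor Atf2, which was not called. Map3k4, the kinase that GADD45 proteins bind and activate, fell from 23.8 ± 2.02 to 12.9 ± 0.892 CPM (SD, n = 5; −0.89 ± 0.10). Mapk11, a p38 kinase (−1.37 ± 0.28), and Map2k3, which activates p38 (−0.46 ± 0.14), fell as well, as did Mapk9, a JNK kinase. Map2k6, a further activator of p38, rose by 1.57 ± 0.54 with 63.9 CPM in starved library 2, and stood at 0.31 without libraries 2 and 4, which was not called. Mapk8, a JNK kinase, rose by 0.42 ± 0.13. Mapk8 lost its call with library totals alone, with a replicate block and without fed library 2 or 3. Map2k3 lost its call without starved libraries 2 and 4, without starved library 4 and without fed library 4 or 5. Map2k6 lost its call with limma-voom, a replicate block, library totals alone, when any of the 5 fed libraries was left out and without starved library 2 or 4.

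Of 20 tested FOXO, C/EBP, KLF and SMAD factors and receptors linked to growth arrest, 6 rose and 3 fell. Set against 18.6% and 20% of all genes, these are 30% and 15%. Leaving out starved libraries 2 and 4 gave 3 higher and 6 lower. Cebpd, a stress-induced C/EBP factor, rose from 3.66 ± 1.37 to 21.6 ± 9.93 CPM (2.56 ± 0.35). Zbtb16, a zinc finger repressor (1.32 ± 0.33), and Klf6, a zinc finger factor (1.15 ± 0.41), rose. Klf6 was not called without libraries 2 and 4 (0.20) or without either of them alone (0.56 and 1.15). It also lost its call when any of the 5 fed libraries was left out, with limma-voom, with a replicate block and with library totals alone. Cebpa, the C/EBP factor of quiescent hepatocytes (−0.82 ± 0.19), Smad3, a mediator of TGF-β (−0.68 ± 0.20), and Foxo4, a forkhead factor (−0.39 ± 0.14), fell. The call of Foxo4 was lost without starved libraries 2 and 4, when any of the 5 fed libraries was left out and without starved library 1, 3 or 4.

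Of 16 tested immediate early genes, 6 rose and 1 fell, with a median of 0.999. These are 37.5% and 6.25%, against 18.6% and 20% of all genes. Leaving out starved libraries 2 and 4 gave 2 higher and 1 lower. Myc rose from 1.62 ± 0.564 to 16.9 ± 20.05 CPM (3.38 ± 0.70, and 1.64 without these libraries). Atf3, a stress-induced repressor, stood at 1.45 to 2.46 CPM in fed and at 2.92, 68.5, 1.13, 3.29 and 3.83 CPM in starved livers 1 to 5. Its rise of 3.11 ± 1.01 rested on library 2, without which it was 0.61 and not called. It was not called either by limma-voom, with a replicate block or when any of the 5 fed libraries was left out. Nr4a1, an orphan nuclear receptor, was near the detection floor (0.228 and 1.08 CPM) and its rise of 2.20 ± 0.71 lost its call without libraries 2 and 4. It also lost it with limma-voom, with a replicate block and without fed library 1, 2 or 5. Cyr61, a matricellular protein, fell by 1.22 on the log2 scale.

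For the tissue label, 7 hepatocyte markers were abundant in every library, with a summed level of 88967 to 132392 CPM in fed and 113339 to 174192 CPM in starved livers. The sum was mostly Alb (means 82740 and 94215 CPM), which was not called. Of the 7 markers 2 rose (Apoa1 and Cps1) and 1 fell (Ttr). Markers of other cell types moved between the groups too. Of 6 Kupffer cell and macrophage markers 5 fell (Emr1, Clec4f, Cd68, Csf1r and Vsig4), with sums of 268 to 425 and 120 to 214 CPM, and of 6 stellate markers 2 fell (Col1a1 and Col3a1, sums 163 to 214 and 102 to 137 CPM). Of 5 cholangiocyte markers 1 fell (Spp1, sums 46.3 to 57.2 and 14.96 to 40.6 CPM). These sums were mostly Spp1 (means 47.2 in fed and 24.2 CPM in starved liver), and Krt19, Krt7, Epcam and Sox9 were not called. Of 6 endothelial markers 1 rose (Lyve1) and 2 fell (Kdr and Stab2, sums 162 to 183 and 145 to 209 CPM). The neutrophil markers S100a8 and S100a9 rose (list sums 1.41 to 3.41 and 2.38 to 17.8 CPM), highest in starved libraries 4 (17.8) and 2 (14.6), while Mpo and Elane were at 0 in at least 1 library. Of the erythroid markers Alas2 fell (sums 26.8 to 44.9 and 8.35 to 25.1 CPM), and 4 globin genes were listed at 0 in every library. The part of these cells in the members' levels was not tested.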

How the data were processed

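Liver RNA of 5 fed and 5 starved mice was measured by RNA-seq. Per the submitters' processing notes, the authors worked on mm10 with HTSeq, edgeR 3.6.4, CASAVA 1.8.2, Bowtie2 2.0.0 and TopHat2 2.0.0. No source used here states the annotation or the strand setting. Each deposited file holds raw counts per gene of 1 library. The 5 tallies of unassigned reads that close each file were left out. Alignments that were not unique came to 38.6% to 48.4% of the column total, and reads in no feature to 16% to 24.7%. Ambiguous reads came to 0.464% to 0.79%. Starved libraries 2 and 4 had the lowest shares of alignments that were not unique (38.6% and 40.7%). They also had the highest shares of ambiguous reads (0.79% and 0.694%). The part of this difference in the members' levels was not tested.

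Groups come from the sample titles. Counts were tested with edgeR 4.0.16 (R 4.3.3): filterByExpr, TMM scaling and a quasi-likelihood test of starved against fed, with Benjamini-Hochberg adjustment over 12796 genes and a threshold of 0.05. The SE is the log2 fold change over the square root of F. The fit was tested on simulated data. Replicate libraries of 1 group differed by more than sampling noise (chi-square per degree of freedom of at least 11.9). Gene lengths and positions come from GENCODE M21 (GRCm38), which matched 98.5% of gene rows.

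The members and the related lists were chosen with earlier results of these data known. Named in each list were up to 3 genes called higher and 3 lower that changed most and reached 1 CPM in either group, and always Trp53, Cdkn2a, Cdkn2b, Cdkn2d, Mki67 and Ccnd1. Alternatives were other scalings, other filters, DESeq2 1.42.0, limma-voom (limma 3.58.1), a replicate block, and leaving out single libraries or starved libraries 2 and 4 together, 19 settings in all. Depth was 18197194 to 29941358 assigned reads a library. A gene at 1 CPM rests on about 17.2 to 30.2 reads, so levels below that carry a large counting error. The markers of 1 other cell type are not reported here.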

Additional observations from a re-analysis of the deposited data

Results flagged for a closer look

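Of 100 sets of 5 libraries examined (the members and the other named genes in each group), 6 held a library whose gap to the nearest other exceeded 0.71 of the range on the log2 CPM scale, where chance gives about 1 in 20. None was a member on that scale. On the linear CPM scale 14 sets passed, 4 of them the same, 8 of them with starved library 2 apart, and 3 were members: Gadd45a, Btg2 and Cdkn1a, each highest in starved library 2. Trp53 was lowest in starved library 2, at 1.60 CPM against 7.23 to 11.4 CPM in the other 4. Gas6 was lowest in starved library 4, at 13.1 CPM against 17.7 to 19.4 CPM. The other 4 were fed libraries: Ccng2 was lowest in library 2 (11.6 CPM against 13.2 to 13.8), and E2f2 was lowest in library 4 (0.964 CPM against 1.25 to 1.37). Fed library 1 was highest for Ccnb1 (1.93 CPM against 0.729 to 0.929) and for Cdkn2d (2.88 CPM against 2.20 to 2.29).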

How the results depend on the processing

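The count of members higher was 6 under all 19 settings, and the count lower was 0 to 1 when single libraries were left out and 1 without starved libraries 2 and 4. With library totals alone, 1490 genes in all were called higher (2379 with TMM), 6 of the p53 list lower, and 2 of the other CDK inhibitor list, 0 stress kinases and 3 of the FOXO list higher. Limma-voom called 1 stress kinase, 3 of the FOXO list and 2 immediate early genes higher, and DESeq2 called 1 G1 and S phase gene higher. Without starved libraries 2 and 4, 5 of the p53 list and 6 of the FOXO list were lower, and 1 stress kinase, 3 of the FOXO list and 2 immediate early genes were higher. With single libraries left out, the counts were 1 to 5 lower in the p53 list, 0 to 1 higher in the G1 and S phase list, 0 to 2 higher for stress kinases, 3 to 8 higher and 2 to 6 lower in the FOXO list, and 2 to 9 higher and 1 to 2 lower for immediate early genes.

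The sign turned with library totals alone for Cdkn1c (−0.044) and Cdkn2c (−0.081). Leaving out single libraries gave −0.015 (without starved 5) to 0.27 for Cdkn1c and −0.0077 (without starved 1) to 0.19 for Cdkn2c. Gadd45a turned to −1.37 with limma-voom, −1.17 with a replicate block, and −2.33 without starved 2 and 4, and leaving out single libraries gave −2.04 (without starved 2) to 0.77. Trp53 turned to 0.070 without starved 2 and 4, and single libraries left out gave −0.36 to 0.074 (without starved 2). The causes were not tested. Of the 40 other named genes, 25 kept direction and call under every setting and 14 lost a call under at least 1.

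Same-numbered fed and starved libraries had correlations of deviations of −0.05 to 0.20, and 1 of 5 matched its own number best, which gives no sign that the numbers pair the samples but does not show that they are unpaired. With a replicate block 2029 genes were higher and 2381 lower, and of the lists 1 G1 and S phase gene, 0 stress kinases and 2 immediate early genes were higher. Depth limits Cdkn1a in fed liver (14 to 43 reads) and Gadd45a in starved liver (8 to 33 reads in 4 libraries).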
